A study of Mus musculus with 3 samples.

Results

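Embryonic and adult globin genes and regulators of red cell formation were examined in the embryonic region of wild-type mouse embryos at the early headfold (EHF) stage. The set holds 9 genes of the 30854 gene symbols in the deposited table and was taken by symbol, namely *Hba-x*, *Hbb-bh1*, *Hbb-y*, *Hba-a1*, *Hbb-b1*, *Gata1*, *Klf1*, *Nfe2*, and *Epor*. All 9 symbols were present on each array. Embryos were bisected where the extraembryonic and embryonic parts meet, and total RNA of the embryonic part was hybridized to 3 Illumina Mouse-6 arrays, replicates 1, 2, and 3 of a single group. The sample labels name the strain Cd-1, and the methods of the study name ICR. No treatment, mutant, or second stage was on the arrays. The sources do not settle how many embryos an array stands for, so the spread between these arrays may be technical. The p-values of the limma test below rest on 1 estimate of that spread for all genes. The detection p-values compare a gene with negative controls within an array and measure no spread between arrays.

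In the mouse the first, primitive red cells arise in blood islands of the yolk sac, outside the embryo proper, and enter it once the heart beats. They make embryonic hemoglobin from the zeta-like chain of *Hba-x* and the beta-like chains of *Hbb-bh1* and *Hbb-y*, together with the alpha chain of *Hba-a1*. *Hbb-b1* encodes an adult beta chain. *Gata1*, *Klf1*, and *Nfe2* encode DNA-binding factors that bind globin and other red cell genes, and *Epor* encodes the erythropoietin receptor.

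The adult-type globin genes *Hba-a1* and *Hbb-b1* were detected on all arrays and the 3 embryonic globin genes on none. A gene was called above background where the detection p deposited by the authors was under 0.01 on all 3 arrays. This p is the share of negative control probes at least as bright as the gene, and for a symbol with several probes it is a combined value. The rule is therefore not the same test for symbols with different numbers of probes. The rule was met by 2 of the 9 genes, *Hba-a1* and *Hbb-b1*, or 22.2%. Of all 30854 symbols 6357, or 20.6%, met it, so the share of the set was near that of the whole table. At a detection p under 0.001 on all arrays the same 2 genes were called, against 17.0% of all symbols. With 0.01 on at least 2 arrays they were again the ones called, against 25.6%. *Epor* lay at the threshold and was called too on replicate 1, where 29.2% of all symbols were called, but not on replicate 2 (26.6%) or 3 (23.3%). The other 6 genes, *Hba-x*, *Hbb-bh1*, *Hbb-y*, *Gata1*, *Klf1*, and *Nfe2*, had a detection p of 0.05 or above on every array, as did 56.0% of all symbols. The median over the 9 genes of the mean log2 signal was 6.46, and over all symbols it was 6.49. In bulk RNA of this kind, fewer cells of a type and less RNA per cell cannot be told apart.

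Of the detected globin genes only *Hba-a1* had an upstream sequence to set beside those not detected. Its stretch shared GATA and CACCC motifs with *Hba-x* and *Hbb-y*, and CCAAT and TATAA each with only 1 of them. RefSeq promoters of the build GRCm38.p6 matched 6 of the 9 genes. *Hbb-bh1*, *Hbb-b1*, and *Nfe2* had no entry. The 250 bases before the annotated start are printed for *Hba-a1*, which was detected, and for *Hba-x* and *Hbb-y*, which were not. *Hba-x* and *Hba-a1* are neighbors on chromosome 11, and *Hbb-y* lies beside *Hbb-bh1* on chromosome 7. Capitals mark 4 kinds of motif, each searched on both strands. They were the GATA motif (AGATAA, or the same with its first letter T, its last letter G, or both), the CACCC box, the CCAAT box, and the TATA box, searched as TATAA.
Hba-a1, chr11:32283422-32283671, plus strand: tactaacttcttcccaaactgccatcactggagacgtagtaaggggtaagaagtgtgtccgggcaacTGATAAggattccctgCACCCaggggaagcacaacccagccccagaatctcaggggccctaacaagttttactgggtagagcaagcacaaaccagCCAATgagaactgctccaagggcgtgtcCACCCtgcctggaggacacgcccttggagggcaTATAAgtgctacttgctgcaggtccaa
Hba-x, chr11:32276350-32276599, plus strand: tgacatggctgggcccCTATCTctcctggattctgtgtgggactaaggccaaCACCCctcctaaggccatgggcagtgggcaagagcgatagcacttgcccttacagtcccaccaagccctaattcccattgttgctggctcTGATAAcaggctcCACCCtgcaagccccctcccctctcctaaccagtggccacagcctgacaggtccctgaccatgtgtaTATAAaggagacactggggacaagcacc
Hbb-y, chr7:103853208-103853457, minus strand: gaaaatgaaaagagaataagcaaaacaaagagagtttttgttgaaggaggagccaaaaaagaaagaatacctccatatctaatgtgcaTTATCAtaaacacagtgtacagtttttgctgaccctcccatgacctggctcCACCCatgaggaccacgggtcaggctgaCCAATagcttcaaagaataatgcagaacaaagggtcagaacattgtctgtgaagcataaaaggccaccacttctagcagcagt
The *Hba-a1* stretch held 1 GATA motif, 2 CACCC motifs, 1 CCAAT, and 1 TATAA. *Hba-x* held 2 GATA motifs, 2 CACCC motifs, and 1 TATAA, with no CCAAT. *Hbb-y* held 1 GATA motif, 1 CACCC, and 1 CCAAT, with no TATAA. No marked motifs overlapped in these stretches. Of the regulators, *Klf1* held 1 GATA motif and *Epor* 1, whereas *Gata1* held none, and each of the 3 held at least 1 CACCC. Stretches of the same length with at least 1 match made up 26.5% of 32851 promoters for GATA, 52.0% for CACCC, 33.8% for CCAAT, and 22.8% for TATAA. A match describes letters only and is not evidence of a bound site.

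*Hba-a1*, the alpha chain gene, was measured by 1 probe, with 46, 43, and 35 beads per array. Replicate 1 gave a log2 signal of 8.16, replicate 2 gave 7.995, and replicate 3 gave 7.66. Its detection p was 0 on each array. The background level of an array was taken as the dimmest signal that still met a detection p of 0.01 among symbols with 1 probe. It was 6.69, 6.66, and 6.58. All 3 values of *Hba-a1* lay above it, which follows from its detection p and adds nothing to it. For a level with an error, the signals were background corrected by normexp and quantile normalized, and the background level on that scale was subtracted. There *Hba-a1* was 2.58 ± 0.17 above background on the log2 scale (SD, n = 3). The one-sided limma test against background called 2 of the 9 genes, the same ones, and 25.7% of all symbols. The background level was set by the detection p, so for a symbol with 1 probe this test is not separate support. For *Hba-a1* the largest adjusted p over the fit and 8 alternatives was 0.000487. The table has no row for *Hba-a2*, the near-identical second alpha gene, and a probe named for *Hba-a1* may take up transcripts of both.

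*Hbb-b1*, the adult beta chain gene, had log2 signals of 7.69 on replicate 1, 7.33 on replicate 2, and 6.97 on replicate 3. Its detection p was 4.67e-06, 7.29e-06, and 7.37e-07. The level was 1.60 ± 0.44 above background (SD, n = 3), and the largest limma adjusted p over the fit and 8 alternatives was 0.0103. Replicate 1 was the highest and replicate 3 the lowest, and all 3 lay above the background level of their array. The bead numbers fit an average over 11 probes, so the value is not that of a single transcript. If the combined p is the chance of the sum of the p-values of the probes, the mean p per probe was 0.146, 0.152, and 0.124. That rule placed 97.4% of the values of symbols with 2 probes on the steps of such a sum, where chance gives 4%. It was not checked for 11 probes. A mean of that size is higher than a gene bright on all its probes would give. *Hba-x*, with 1 probe, had a detection p of 0.155 on replicate 1, near that mean, and was not called. The calls of *Hbb-b1* and of genes with fewer probes are thus not like for like. Other beta chain genes share long stretches with *Hbb-b1*, so which of them the probes read was not settled. *Hbb-b2*, the adult beta-minor gene, had 1 probe and signals of 6.45, 6.39, and 6.35, with detection p-values of 0.813, 0.810, and 0.675.

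**Figure D1:**
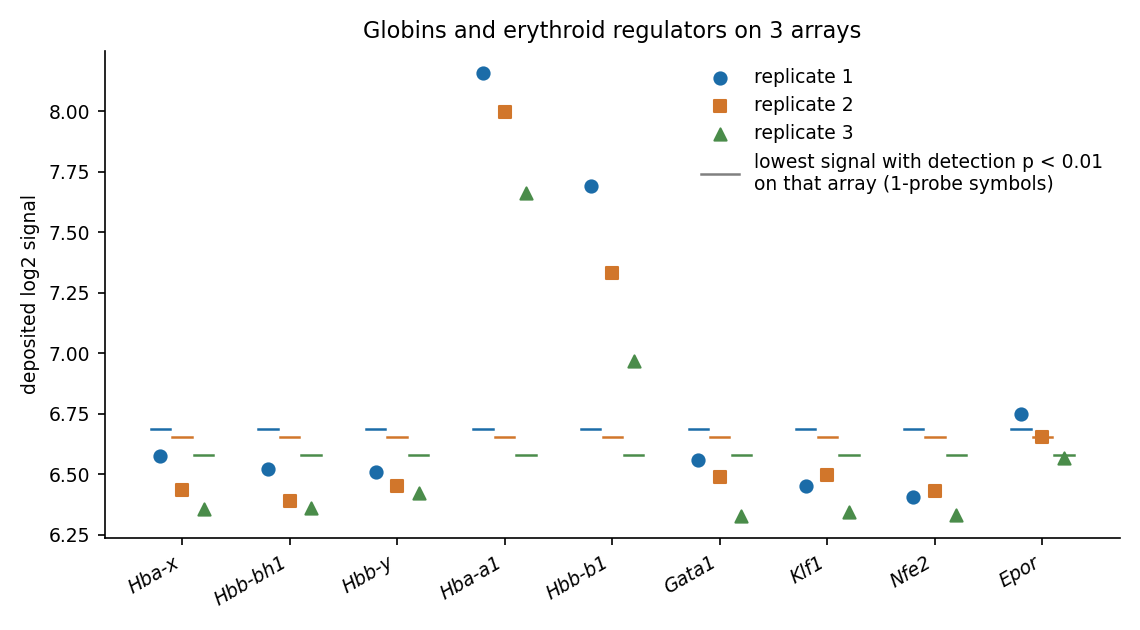
Deposited log2 signal (vertical axis) of the 9 genes (horizontal axis) on each array, with a short line at the background level of that array. *Hba-a1* (7.66 to 8.16) and *Hbb-b1* (6.97 to 7.69) lie above the lines, *Epor* lies at or near them, and the others lie below. Heights of different genes come from different probes and are not comparable.

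The 3 embryonic globin genes were at background. *Hba-x*, measured by 1 probe, had signals of 6.58, 6.43, and 6.36 and detection p-values of 0.155, 0.615, and 0.623. *Hbb-bh1*, averaged over 2 probes, had signals of 6.52, 6.39, and 6.36 with detection p-values of 0.486, 0.933, and 0.626. *Hbb-y*, also averaged over 2 probes, had signals of 6.51, 6.45, and 6.42 with detection p-values of 0.484, 0.549, and 0.182. None of these 9 values came under 0.05. Relative to the background level the means were -0.53 ± 0.25 for *Hba-x*, -0.58 ± 0.20 for *Hbb-bh1*, and -0.52 ± 0.14 for *Hbb-y* (SD, n = 3). For symbols with 1 probe, a level below this line follows from the detection p and adds nothing to it. A signal too weak to raise the probe above the negative controls would not be seen at this sensitivity, so these calls say that the genes were not detectable, not that their RNA was absent.

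The DNA-binding regulators were at background too. *Gata1*, which red cell precursors require, had signals of 6.56, 6.49, and 6.33 over 2 probes, with detection p-values of 0.095, 0.235, and 0.891. *Klf1*, an activator of adult beta globin, had signals of 6.45, 6.50, and 6.35 and detection p-values of 0.797, 0.304, and 0.685. *Nfe2*, the larger subunit of the factor NF-E2, had signals of 6.40, 6.43, and 6.33 and detection p-values of 0.947, 0.624, and 0.756. No array came under 0.05 for any of these genes. The lowest detection p among the 6 genes at background was 0.0950, for *Gata1* on replicate 1.

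*Epor*, measured by 1 probe, had signals of 6.75, 6.65, and 6.57 on replicates 1, 2, and 3. Its detection p was 0.00214, 0.0107, and 0.0139, under 0.01 on replicate 1 only and under 0.05 on all 3 arrays. With the looser limit of 0.05 on all arrays it was called beside the adult globins, 3 of 9 genes, as were 24.7% of all symbols. With 0.01 on any 1 array the count was again 3 of 9, against 33.0% of all symbols. Relative to background its level was 0.03 ± 0.11 (SD, n = 3), which did not pass in limma. With the lower background taken from the median of undetected symbols limma called it too, 3 of 9 genes, against 36.6% of all symbols.

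*Hba-a1* followed the median of the detected genes from array to array more closely than *Hbb-b1* did. The deposited signals were not normalized between arrays, and their array medians were 6.57, 6.51, and 6.42. After quantile normalization *Hba-a1* had levels of 7.40, 7.44, and 7.45, an SD of 0.03, where the median SD of the 6357 detected symbols was 0.17. That small SD rested on the scaling, since 47.0% of detected symbols had a smaller one with centered deposited signals and 42.8% with median scaling. *Hbb-b1* had levels of 6.72, 6.40, and 6.23, an SD of 0.25, against an upper quartile of 0.26 over the same symbols. Of detected symbols 72.9% had a smaller SD than *Hbb-b1*. That share was 77.4% with centered deposited signals and 89.6% with median scaling. Each array was then compared with the mean of the other arrays. For *Hba-a1* this difference, relative to the median of all detected symbols, was -0.04 for replicate 1, 0.03 for replicate 2, and 0.00 for replicate 3. For *Hbb-b1* it was 0.42, -0.07, and -0.36. *Hbb-b1* was thus higher on replicate 1 and lower on replicate 3 than the detected symbols as a whole, whereas *Hba-a1* moved with them. The order of replicates was the same for *Hbb-b1* with median scaling (0.43, -0.06, and -0.39) and with centered deposited signals (0.22, -0.06, and -0.16). With a single array per replicate these differences have no test.

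**Figure D2:**
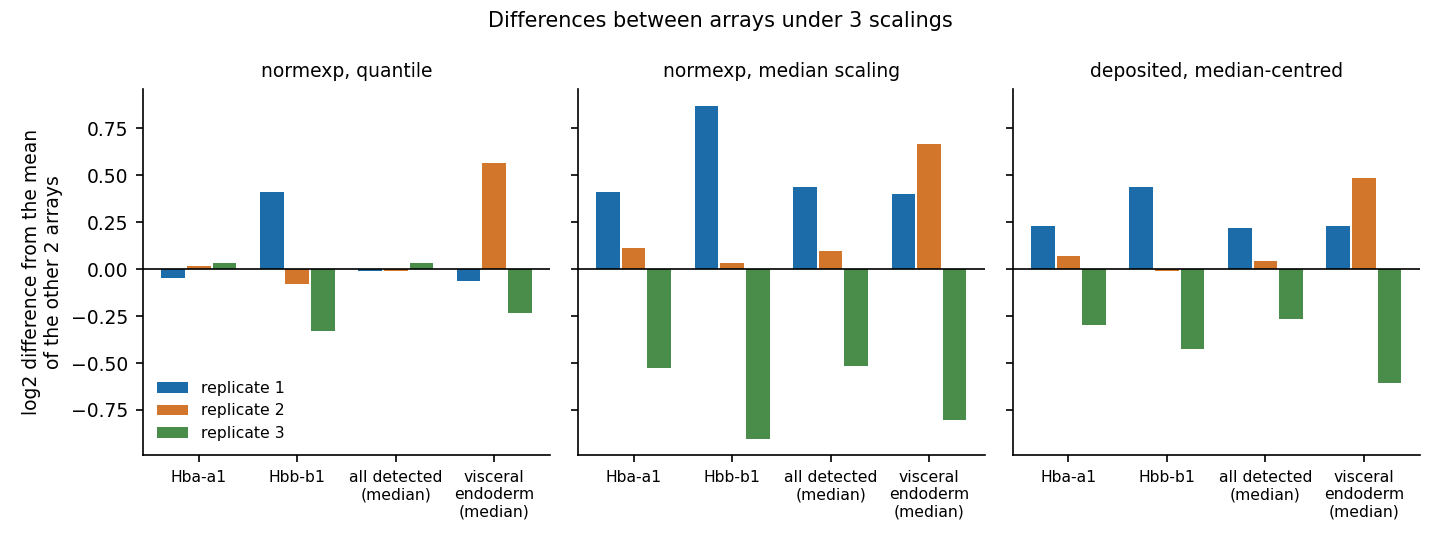
Difference of each array from the mean of the other arrays (vertical axis, log2) for *Hba-a1*, *Hbb-b1*, the median of 6357 detected symbols, and the median of 12 visceral endoderm markers, under 3 scalings. Bars of *Hba-a1* follow those of all detected symbols in each panel, whereas *Hbb-b1* is higher on replicate 1 and lower on replicate 3 than they are.

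Few genes that are defining for red cells came near detection. Of 18 red cell membrane and surface genes 0 were above background, against 20.6% of all symbols. Among the 18 were *Slc4a1* (the anion exchanger of the red cell), *Epb4.2*, and *Rhag*. The limma test called 0 of the 18 as well, against 25.7% of all symbols, and 0 had an unadjusted p under 0.05. With the background level taken from the median of undetected symbols it called 3 of 18, against 36.6%. *Epb4.1*, a protein that ties the membrane to its skeleton, met 0.01 on replicates 1 and 3. Leaving out replicate 2 gave 2 of 18, against 6660 of all 30854 symbols. With the looser limit of 0.05 on all arrays 1 of 18 was called, against 24.7% of all symbols. The median of the mean log2 signals of the list was 6.48. *Eraf*, an older symbol of the alpha globin chaperone gene *Ahsp*, had signals of 6.63, 6.57, and 6.35 and was under 0.01 on no array. None of *Hbb-b2*, *Hbq1*, *Mb*, *Cygb*, and *Ngb*, the other 5 globin genes in the table, was above background, and limma called 0 of them, with 0 at an unadjusted p under 0.05. *Hba-a2*, *Hbb-bh0*, *Hbb-bh2*, *Hbb-bt*, *Hbb-bs*, and *Hbq1b* had no row under these symbols.

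Heme synthesis genes were detected in part, and the pair of genes for its first step was split. *Alas1*, the form used in most cells, had log2 signals of 8.86, 8.83, and 8.71 and was 3.69 ± 0.10 above background. *Alas2*, the erythroid form, had signals of 6.52, 6.49, and 6.42, with detection p-values of 0.451, 0.343, and 0.287. The probes differ, so only the calls can be set side by side. Of 15 genes for heme synthesis and its transport steps 8 were above background, or 53.3%, against 20.6% of all symbols. Their list had a median mean signal of 7.35. Mean log2 signals were 10.85 ± 0.60 for *Urod*, 10.63 ± 0.54 for *Glrx5*, and 9.72 ± 0.28 for *Alad* (SD, n = 3), genes for later steps or for iron-sulfur clusters. *Slc25a38*, *Slc25a37*, and *Abcb6* were also above background. *Uros*, *Cpox*, *Ppox*, *Fech*, and *Abcb10* were among those that were not.

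Genes of iron handling, which cells outside the red lineage also use, were above background for 5 of 10, against 20.6% of all symbols. These were *Fth1* (ferritin heavy chain, 12.71 ± 0.29), *Tfrc* (transferrin receptor, 10.16 ± 0.43), *Slc40a1* (the iron exporter ferroportin, 8.24 ± 0.56), *Ireb2* (7.39 ± 0.30), and *Slc11a2*. Of 13 genes for the globin chaperone and red cell enzymes 4 were above background, or 30.8%. They were *Prdx2* (11.19 ± 0.37), *Nt5c3* (7.98 ± 0.14), *Hebp1* (7.76 ± 0.25), and *Blvrb* (7.74 ± 0.10). *Car1*, *Bpgm*, *Hemgn*, and *Trim10* were among those that were not. *Bpgm* had a detection p of 0.00935 on replicate 1 and 0.0171 on replicate 2. The limma test called 5 of the 13, against 25.7% of all symbols, including a gene without a detection call.

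**Figure D3:**
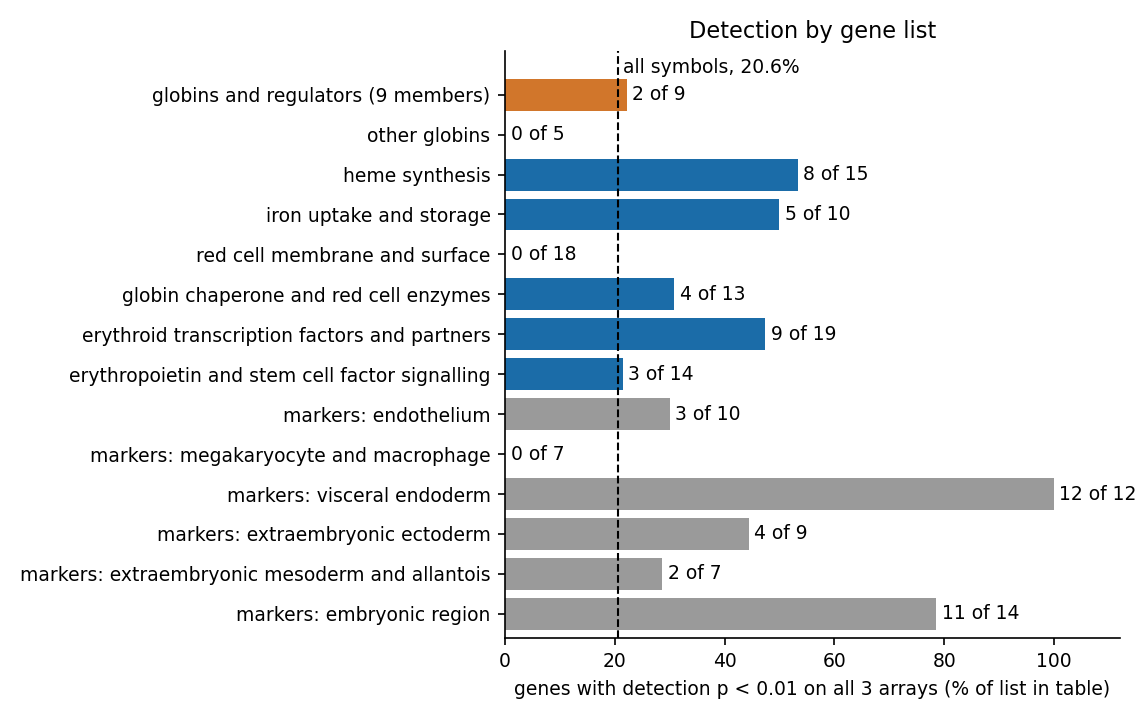
Share of the genes of each list (rows) with a detection p under 0.01 on all 3 arrays (horizontal axis, percent of the list members in the table), with counts beside the bars and the share of all symbols, 20.6%, as a dashed line. Red cell membrane genes (0 of 18) and other globins (0 of 5) lack calls, whereas 8 of 15 heme synthesis genes and 9 of 19 transcription factors have them.

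The other erythroid transcription factors and their partners were split, with 9 of 19, or 47.4%, above background, against 20.6% of all symbols. *Lmo2*, a bridging protein of the erythroid complex, gave 8.91 ± 0.16 as its mean log2 signal (SD, n = 3). *Tal1*, a factor required for all blood lineages, had signals of 7.22, 7.11, and 6.99, and *Gata2*, a progenitor factor, had 7.59, 7.70, and 7.01. *Tal1* and *Gata2* were picked for their values here after these had been seen. *Ldb1* (10.54 ± 0.38), *Cbfb* (10.06 ± 0.36), and *Mafg* (8.10 ± 0.17), which encode partners used in many tissues, were above background, as were *Klf3*, *Zbtb7a*, and *Tcfe2a*. At a detection p under 0.001 the count was 5 of 19, against 17.0% of all symbols. *Zbtb7a* and *Tcfe2a* did not pass in limma. *Gfi1b*, *Myb*, *Runx1*, *Lyl1*, *Sox6*, and *Bcl11a*, with functions in blood formation or globin switching, had a detection p under 0.05 on no array, as was so for *Gata1*, *Klf1*, and *Nfe2*. The remaining 4 of the 10 without a call were *Cbfa2t3h*, *Mafk*, *Bach1*, and *Nfe2l2*.

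**Figure D4:**
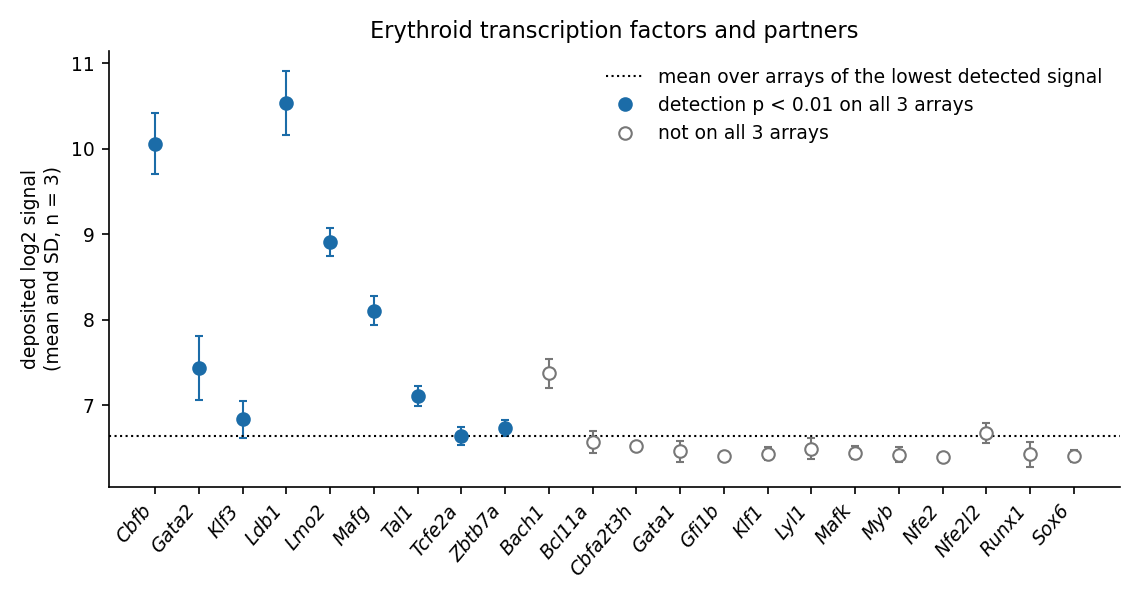
Mean deposited log2 signal with its SD over 3 arrays (vertical axis) of 19 transcription factors and partners and of *Gata1*, *Klf1*, and *Nfe2* (horizontal axis). Filled points were detected on all 3 arrays, and the dotted line is the mean background level. *Lmo2*, *Tal1*, and *Gata2* lie above it, and *Gata1*, *Klf1*, and *Nfe2* below.

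Genes of erythropoietin and stem cell factor signaling were above background for 3 of 14, or 21.4%, near the share of all symbols. They were *Gab1* (9.23 ± 0.24), *Socs3* (7.42 ± 0.20), and *Cish* (7.00 ± 0.27). *Epo*, the ligand of the receptor, had signals of 6.69, 6.42, and 6.30 and met 0.01 on replicate 1 only. *Jak2*, *Stat5a*, and *Stat5b*, which act below the receptor, were not called. The limma test called 6 of the 14, against 25.7% of all symbols. On at least 1 array 9 of the 14 had a detection p under 0.01, against 33.0% of all symbols, so this list was near the share of all symbols by the main rule and above it by these.

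Markers of other cell types were examined by the same rule, in lists chosen with earlier results of these data known. Their calls alone do not settle which tissues the RNA held. Embryonic region markers were above background for 11 of 14, including *T*, *Otx2*, and *Wnt3a*, against 20.6% of all symbols. All 12 visceral endoderm markers tested were above background, again against 20.6% of all symbols. Relative to all detected symbols, their median difference from the mean of the other arrays was -0.06, 0.57, and -0.27 on replicates 1, 2, and 3. The called extraembryonic ectoderm markers had 0.16, 0.13, and -0.28, and the called embryonic region markers 0.29, -0.25, and 0.08. The called markers of extraembryonic mesoderm and allantois had -0.05, 0.15, and -0.11, and those of endothelium -0.13, 0.08, and 0.04. *Hbb-b1* had 0.42, -0.07, and -0.36, and whether it varied with any of these lists was not tested. Signs of values near 0 moved with the scaling, as for visceral endoderm on replicate 1, at 0.01 with centered deposited signals. *Hba-a1* had -0.04, 0.03, and 0.00. Of the markers of extraembryonic ectoderm 4 of 9 were called, or 44.4%, against 20.6% of all symbols. The values given for them need not stand for that tissue. Of extraembryonic mesoderm and allantois 2 of 7 were called, *Bmp4* and *Pmp22*, or 28.6%, against 20.6% of all symbols. Without replicate 3 the count was 4 of 7, against 7427 of all 30854 symbols. Endothelial markers were called for 3 of 10, *Egfl7*, *Esam*, and *Sox7*, whereas *Kdr*, *Pecam1*, and *Cdh5* were not. Of 7 megakaryocyte and macrophage markers 0 were called by detection p or by limma, against 20.6% and 25.7% of all symbols. Among the 7 were *Itga2b*, *Gp9*, *Csf1r*, *Ptprc*, *Sfpi1*, and *Cx3cr1*. In limma 0 of the 7 had an unadjusted p under 0.05. Their medians on replicates 1, 2, and 3 were 6.51, 6.48, and 6.39. The part of any of these cell types in the adult globin signal was not tested.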

How the data were processed

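The authors hybridized biotin-labeled RNA to 3 arrays and deposited log2 signals per gene symbol, averaged over probes and not normalized between arrays, with detection p-values, mean bead numbers, and standard errors over beads on the intensity scale. The submitters' processing notes name Partek. Normalization and genome build are not given in the sources used here. Groups came from the sample labels. The 9 genes and the lists were chosen with earlier results of these data known. The main rule was a detection p under 0.01 on every array. Levels were normexp corrected from 21986 symbols with 1 probe, offset by 16, quantile normalized, and tested against background (one-sided limma, Benjamini-Hochberg over 30854 symbols, threshold 0.05). limma had 1 standard error, 0.15, for all genes, so the largest adjusted p over alternatives is printed. The script was tested on simulated data. Probe numbers are the smallest, up to 12, that made bead means whole. The number of arrays limits precision. Named were the 9 genes and the detected symbols of each list, with values for up to 4 of highest mean signal, and the 5 symbols of nearest profile. Other genes were named after their values had been seen. Alternatives varied thresholds, arrays, normalization, offset, and background level. Symbols are those of the array, such as *Tcfe2a* (*Tcf3*). Some genes of the lists are counted but not reported here by name. limma 3.58.1 ran in R 4.3.3, and the rest in Python 3.11.15 with pandas 2.3.3, numpy 2.4.6, and scipy 1.17.1.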

Additional observations from a re-analysis of the deposited data

How the results depend on the processing

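*Hba-a1* and *Hbb-b1* stayed above background in all 8 alternatives for each, from 1.28 to 3.12 and from 0.67 to 2.14, and without a replicate from 2.45 to 2.79 and from 1.31 to 1.93. The count of the 9 genes was 2 or 3 throughout, the added gene being *Epor*, and 2 without any replicate. *Hba-x*, *Hbb-bh1*, *Hbb-y*, *Gata1*, *Klf1*, and *Nfe2* were called in 0 of 7 alternatives each. With the background level set at the median of undetected symbols, which lowers it, *Hba-x* was at 0.00963, *Hbb-y* at 0.0172, and *Gata1* at 0.0161 without passing, and *Epor* passed at 0.57 (limma adjusted p = 0.000683). Without a replicate *Epor* ranged from -0.0296, without replicate 1, to 0.10. Detected symbols numbered 10172 when 1 array sufficed, since fewer arrays had to pass. Differences of an array from the others, which share the shift of all symbols, moved with the scaling. With median scaling they were 0.41, 0.11, and -0.53 for *Hba-a1* on replicates 1, 2, and 3, 0.87 and -0.90 for *Hbb-b1* on 1 and 3, and 0.20 and -0.15 for *Epor* on 1 and 3. With centered deposited signals they were 0.23, 0.0681, and -0.30 for *Hba-a1*, and -0.0180 for *Epor* on replicate 3. All detected symbols had medians of 0.44, 0.10, and -0.52 with median scaling and 0.22, 0.05, and -0.26 with centered signals. Of 104 counts per list, 90 stayed within 1.5 times and 14 did not, in the lists for red cell membrane (0 to 2 called), transcription factors (5 to 11), signaling (2 to 9), endothelium (1 to 6), and extraembryonic mesoderm (1 to 5, and 4 without replicate 3). A fit restricted to symbols detected on at least 1 array left out the 6 genes at background, and *Epor* did not pass in it. No paired analysis was possible because the arrays form 1 group with no other to pair them with.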

Other observations

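Several genes of the erythroid lists had a mean signal well above background without a detection call on all arrays, each an average over several probes. *Kit*, the receptor of stem cell factor, was averaged over 3 probes and had log2 signals of 7.85, 7.81, and 7.67 but detection p-values of 0.227, 0.0197, and 0.00396. *Ftl1*, the ferritin light chain gene, had signals of 9.72, 9.55, and 8.40 over 2 probes, with detection p-values of 0.419, 0.0115, and 0.488. *Bach1*, a heme-sensing repressor of globin genes, had signals of 7.52, 7.41, and 7.19 over 2 probes, with detection p-values of 0.00205, 0.0389, and 0.257. The limma test called all 3, which were picked after their values had been seen.

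The 5 detected symbols whose normalized level over the 3 arrays lay closest to the mean of *Hba-a1* and *Hbb-b1* were *Chd7*, *Ktelc1*, *2310007A19Rik*, *Rce1*, and *4933428D01Rik*. The likeness was the root mean square difference of levels centered over the arrays, from 0.00199 for *Chd7* to 0.00651. With 3 arrays this singles out little, since 330 of 6355 symbols lay within 0.05. The centered mean was 0.12, -0.02, and -0.10 on replicates 1, 2, and 3. *Hba-a1* and *Hbb-b1* differed from array to array, so this mean was the profile of neither.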
